A study of Saccharomyces cerevisiae with 39 samples.

Results

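The genes nearest the ends of the 16 yeast chromosomes were followed through 90 min of Abf1 depletion. On each of the 32 chromosome arms, the systematic gene numbers count outward from the centromere, and all identifiers with the 6 highest distinct numbers were taken. This gave 213 identifiers. Of the 11 identifiers that were left out by name, 8 were among them, which left 205. A mean raw count of at least 10 over all libraries was required, and 103 genes passed it, of 6420 features in the count table. Of the 102 that did not pass, 14 had no count in any library. The members just inside this limit were MAL32 with a mean of 10.1 counts and VTH1 with 10.1 counts, and those just outside were YGL258W-A with 9.69 counts and YIR043C with 8.69 counts. The 103 genes lay on 31 arms (none on the left arm of chromosome III), between 0.263 and 31.6 kb from the end of the assembled chromosome, with a median of 9.96 kb. All 103 passed the filter on low counts of the test and were among the 5722 features tested. The rule used no measured change, but it was set with earlier results of these data known.

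Yeast Abf1 is an essential DNA binding protein that keeps promoters open at a large number of genes and also binds the silencers of the mating type loci and the X elements next to the telomeres. The last stretch of each chromosome is built from X elements and, on some arms, Y′ elements, which carry helicase genes and are nearly alike from arm to arm. The genes further inward belong to small families for sugar use, metal and vitamin supply, cell wall proteins and detoxification. Near telomeres, the Sir2, Sir3 and Sir4 proteins, which Rap1 and the Ku proteins bring to the chromosome end, can spread along nucleosomes and silence genes, and the histone acetyltransferase Sas2 limits that spread.

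Newly made RNA was measured by 4tU-seq, where RNA made during a short pulse of 4-thiouracil (5 mM for 6 min) is isolated and sequenced. The 39 libraries formed 13 groups of 3 biological replicates. In 33 libraries the cells were BY4742 MATalpha haploids with tor1-1, a deletion of FPR1, RPL13A-FKBP12 as the anchor, and Abf1 fused to FRB, yEGFP and 3 V5 tags (Abf1 groups, with 11 time points from 0 to 90 min, named by their minutes). In 6 libraries the cells were the same strain without the Abf1 tag (WT, at 90 and 0 min). Rapamycin (7.5 µM), which joins FRB to FKBP12 and so draws Abf1 out of the nucleus, was given for the time in each name, and the 0 min groups received DMSO for 90 min. WT thus shares every other allele, including the anchor, with the tagged strain. Whether the tagged strain is 1 clone was not given in the sources used here.

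Total counts lay between 3500982 and 11266408 per library. FPR1 had 0 counts in all 39 libraries, and ABF1 lay between 666 and 1030 CPM (counts relative to the TMM-adjusted library size, on the usual CPM scale) in tagged libraries and between 310 and 385 CPM in WT libraries. The 4 MATalpha markers summed to 673 to 4886 CPM in tagged libraries and 2092 to 2527 CPM in WT, and the 5 MATa markers to 6.45 to 14.9 CPM and 6.07 to 11.6 CPM, with AGA2 at 0 in 21 of 39 libraries. Replicate 1 of the tagged strain stood apart from replicates 2 and 3 at every time point for a large share of the chromosome-end genes, and this is described first, since it touches each later comparison.

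Per kilobase of gene, the chromosome-end genes had a median level of 13.04 CPM per kb over all libraries, against 61.2 CPM per kb over all features tested. The range was wide, from 0.359 to 1452 CPM per kb. The highest levels belonged to YML131W (1452 CPM per kb), a relative of medium-chain dehydrogenases, YLR460C (1443 CPM per kb), ERO1 (942 CPM per kb), which forms disulfide bonds in the endoplasmic reticulum, and HXK1 (745 CPM per kb), a hexokinase. Together the 103 genes held 0.752% to 1.38% of the normalized counts of a library.

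In the tagged strain, genes near the chromosome ends were lower in replicate 1 than in the other replicates, both at 0 min and after Abf1 depletion. The difference was largest for SEO1, a presumed permease, for COS12, for the yapsin protease genes YPS5 and YPS6 and for YIR042C, all with levels several times lower in replicate 1. The median over the 103 genes of log2(CPM + 0.5) lay between 2.97 and 3.45 in the 11 libraries of replicate 1. It lay between 3.85 and 4.21 in replicate 2, between 3.87 and 4.17 in replicate 3 and between 3.81 and 4.01 in the 6 WT libraries, so replicate 1 did not overlap with any of these. The summed level of the genes was 7516 to 9598 CPM in replicate 1, 9323 to 13774 CPM in replicate 2, 9358 to 11201 CPM in replicate 3 and 8722 to 9596 CPM in WT. This pattern was found on inspection of the values, and it is given as a description with no test, and the genes named for it were chosen after their values were seen. The replicate number is shared by all 11 time points, so these are not independent measurements.

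Of the 103 genes, 34 had their lowest value in replicate 1 at all 11 time points, where 7.74% of all features tested did. None had its lowest value in replicate 2 or in replicate 3 at all time points (0.175% of all features in each case). In replicate 2, 3 genes had their highest value at all time points (0.472% of all features), and in replicate 3 none did (0.157% of all features). Averaged over the time points on the log2(CPM + 0.5) scale, 27 of the 103 were at least 2-fold lower in replicate 1 than the mean of replicates 2 and 3, against 3.29% of all features. Both conditions held for 25 genes. In 21 genes every library of replicate 1 lay below every library of replicates 2 and 3, which was so for 2.46% of all features. The median difference over the 103 genes was -0.41, and -0.002 over all features. In WT the same difference (replicate 1 minus the others) had a median of -0.03 over the 103 genes, and none of them reached 1 in either direction. The limit for membership was set on the mean count over all libraries, so a gene low in replicate 1 could pass through the others. COS12 had 6 counts over replicate 1, 190 and 246 over replicates 2 and 3, and 0.393 to 0.736 CPM in WT. Among the 64 members with a mean count of at least 50, 14 were at least 2-fold lower in replicate 1.

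**Figure D1:**
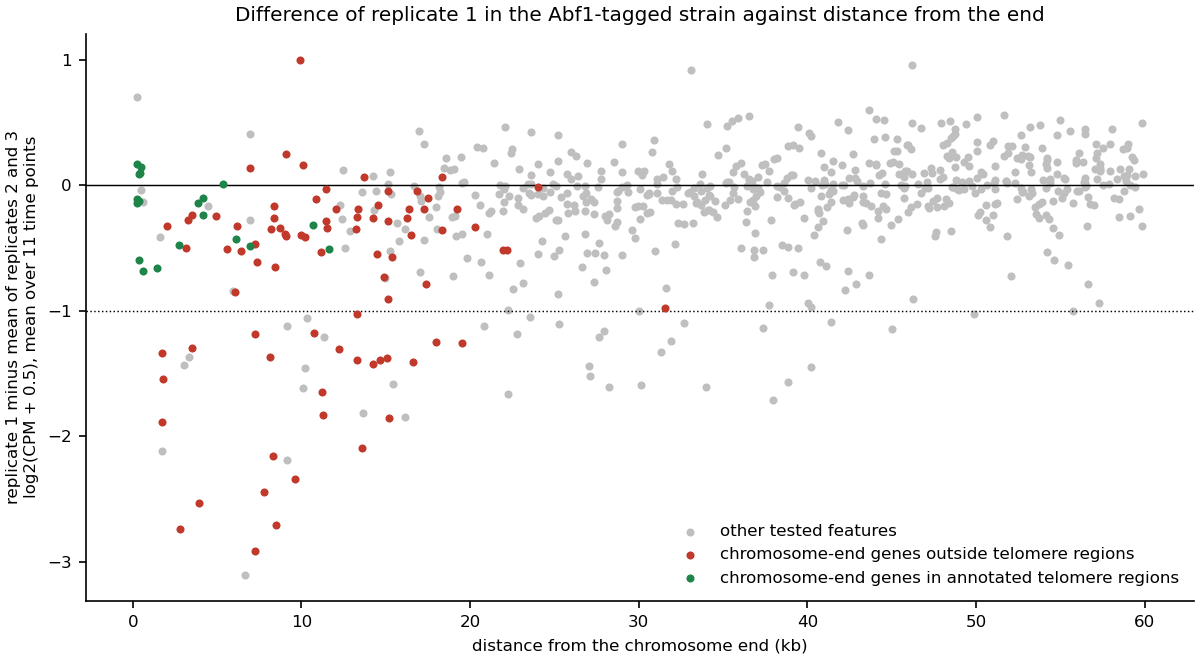
Each point is a tested feature within 60 kb of a chromosome end, with its distance from the end in kb on the x axis and, on the y axis, the difference of replicate 1 from the mean of replicates 2 and 3 on the log2(CPM + 0.5) scale, averaged over the 11 time points of the tagged strain. The 27 chromosome-end genes below the dotted line at -1 all lie outside the annotated telomere regions and within 19.5 kb of an end.

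SEO1 (YAL067C, chromosome I, 7235 to 9016, minus strand) had 0 to 0.738 CPM in the 11 libraries of replicate 1, with a median of 0.345 CPM. It had 3.80 to 13.7 CPM in replicate 2 (median 6.02 CPM) and 3.09 to 8.10 CPM in replicate 3 (median 5.56 CPM), and in WT 3.41 to 4.56 CPM at 90 min and 2.95 to 3.73 CPM at 0 min. In raw counts this was 23 counts over all libraries of replicate 1, against 420 and 361 counts over those of replicates 2 and 3. The difference of -2.91 ± 0.77 (SD over 11 time points) understates the ratio, because the added 0.5 CPM weighs on low values.

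YPS6 (YIR039C, chromosome IX, 430498 to 432111, minus strand), which encodes a cell wall aspartic protease, gave the same order at a higher level. Its lowest, median and highest values were 4.15, 5.56 and 12.3 CPM in replicate 1, 26.4, 43.1 and 59.2 CPM in replicate 2, and 24.8, 38.9 and 47.8 CPM in replicate 3. WT lay between these, with 21.5, 17.0 and 16.5 CPM at 90 min and 13.5, 15.6 and 14.3 CPM at 0 min. Within each replicate number the gene's values at 90 min were above those at 0 min, but in replicate 1 it reached at most 12.3 CPM, less than any library of the others.

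The 27 genes were also compared with WT. In 25 of them the mean of replicate 1 was below the WT mean, and in 21 the mean of replicates 2 and 3 was above it. COS1 (YNL336W, chromosome XIV, 8330 to 9475, plus strand) had 1.99 to 5.49 CPM in replicate 1, 12.0 to 21.5 CPM in replicate 2 and 11.3 to 20.0 CPM in replicate 3, with 6.39 to 11.6 CPM in WT. MAL33 (YBR297W, chromosome II, 800523 to 801929, plus strand), of the maltose activator type, had 3.93 to 8.65 CPM in replicate 1 and 8.64 to 41.2 CPM in replicates 2 and 3, with 10.7 to 14.04 CPM in WT. HXK1 (YFR053C, chromosome VI, 253592 to 255049, minus strand), at -0.90 and so not one of the 27, differed from these in its place relative to WT. It had 517 to 905 CPM in replicate 1, 1089 to 1996 CPM in replicate 2 and 945 to 1459 CPM in replicate 3, and its WT values of 475 to 632 CPM overlapped those of replicate 1.

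**Figure D2:**
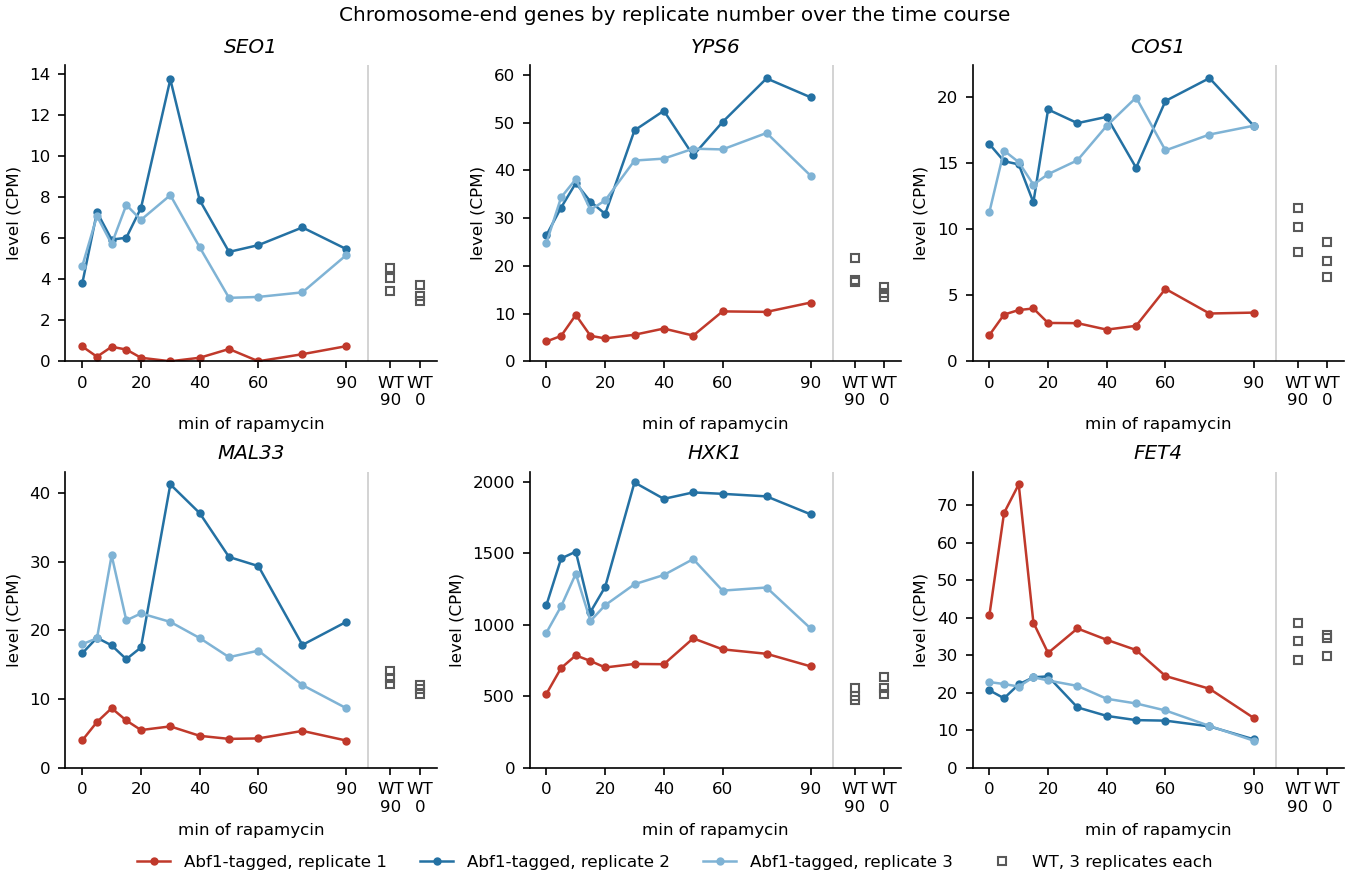
Level in CPM (y axis) against minutes of rapamycin (x axis) for 6 chromosome-end genes, with a line for each replicate number of the Abf1-tagged strain and open squares for the 3 libraries each of WT at 90 min and WT at 0 min. Replicate 1 runs below the other replicates at all 11 time points for SEO1, YPS6, COS1, MAL33 and HXK1, and above them for FET4.

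All 10 COS genes, a family of membrane proteins that send other membrane proteins to the vacuole, were lower in replicate 1 on average, from -0.28 ± 0.20 for COS10 to -2.74 ± 0.44 for COS12 (SD over 11 time points), with a median of -0.94. The 8 genes of the sugar list were also all lower, with a median of -0.88 and with MAL33 at -1.83 ± 0.41, GEX2, a glutathione exchanger kept in this group by its list, at -1.30 ± 0.26 and MAL13 at -0.19 ± 0.24. The 6 metal, vitamin and cofactor genes had a median of -0.37 and the 3 seripauperin genes of the cell wall -0.65. MHT1 and MMP1, neighbours on chromosome XII that serve the use of S-methylmethionine, were at -1.40 ± 0.43 and -1.25 ± 0.58. Some of these families are alike in sequence. In 39 of the 103 genes more than 50% of the 55-base windows occur elsewhere in the genome. Reads from such windows may not be placed in 1 copy. Among the 50 genes with no repeated window, 13 were at least 2-fold lower in replicate 1, with a median of -0.37.

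Not every chromosome-end gene differed in this way. The 19 genes inside or across an annotated telomere region lay between -0.68 and 0.17, with a median of -0.14, and none reached 2-fold. The other 84 had a median of -0.49. Along the chromosome, the median over all features tested was -0.28 within 5 kb of an end, -0.48 from 5 to 10 kb, -0.39 from 10 to 15 kb, -0.25 from 15 to 20 kb, -0.15 from 20 to 30 kb and -0.03 from 30 to 50 kb. The share of features at least 2-fold lower was 33.3% from 10 to 15 kb and 2.55% beyond 100 kb. FET4 (YMR319C, chromosome XIII, 912880 to 914538, minus strand), the low-affinity iron transporter, was the exception, with 13.3 to 75.6 CPM in replicate 1, 7.57 to 24.3 CPM in replicate 2, 7.20 to 24.1 CPM in replicate 3 and 28.6 to 38.6 CPM in WT. It was the only one of the 103 that was highest in replicate 1 at all time points (5.37% of all features) and that was at least 2-fold higher there (0.0699% of all features).

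Other genes moved with the replicate number, and they were not limited to the lists given here. Of the 5722 features tested, 188 were at least 2-fold lower in replicate 1, and 109 of these lay beyond 100 kb from an end. The MATalpha markers summed to 673 to 1540 CPM in replicate 1, to 1324 to 4886 CPM in replicates 2 and 3 and to 2092 to 2527 CPM in WT, and all 4 had a lower median in replicate 1. The MATa markers summed to 6.45 to 12.8 CPM in replicate 1, 8.24 to 14.9 CPM in replicates 2 and 3 and 6.07 to 11.6 CPM in WT, and the haploid markers to 235 to 331 CPM, 213 to 432 CPM and 333 to 356 CPM. Among 18 genes for silencing and telomere factors, which are not members, none was at least 2-fold lower in replicate 1 and SAS2 was higher by 1.09 ± 0.21 (SD over 11 time points). It had 19.9 to 27.1 CPM in replicate 1, 7.29 to 17.0 CPM in replicates 2 and 3 and 13.1 to 15.6 CPM in WT. SIR3 differed by 0.20 ± 0.13 and SIR4 by 0.01 ± 0.17. The part of these genes, or of total counts (3917566 to 6509811 in replicate 1 and 3500982 to 11266408 in replicates 2 and 3), in the difference was not tested.

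After 20 min of Abf1 depletion, 4 of the 103 chromosome-end genes fell and 1 rose relative to 0 min. The genes that fell were AIF1, a mitochondrial oxidoreductase related to animal apoptosis-inducing factor, FEX1 and FEX2, which export fluoride from the cell, and RDS1, a zinc cluster transcription factor. The gene that rose was YER188C-A, of unknown function. Calls required an adjusted p below 0.01 together with a change of more than 1.5-fold. The share of all 5722 features called lower was 8.65%, and 0.629% were called higher, against 3.88% and 0.971% of the end genes. The difference between these shares was not tested. Their median log2 fold change was 0.03, against 0.06 over all features.

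AIF1 (YNR074C, chromosome XIV, 777602 to 778738, minus strand) had 14.7, 16.5 and 18.5 CPM at 20 min, 14.4, 16.7 and 18.9 CPM at 40 min and 9.34, 16.0 and 14.7 CPM at 90 min, against 62.1, 105 and 105 CPM at 0 min. In WT it had 149, 150 and 158 CPM at 90 min and 135, 141 and 150 CPM at 0 min. From 10 min on, all libraries were below all those at 0 min, with replicate 1 the lowest at 0 min. The log2 fold change was -2.45 (± 0.26 SE, with 5.75e-09 as the BH-adjusted edgeR p) at 20 min and -2.76 (± 0.27 SE, with 1.00e-09 as the BH-adjusted edgeR p) at 90 min, and -2.86 (± 0.36 SE, with 2.19e-07 as the BH-adjusted edgeR p) for the difference from the rapamycin effect in WT. The gene was called from 10 min on, and its calls at 20, 40 and 90 min were kept in all 6 fits that left out 1 library.

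RDS1 (YCR106W, chromosome III, 310958 to 313456, plus strand) had 43.4, 56.6 and 69.9 CPM at 20 min and 62.0, 71.9 and 72.9 CPM at 90 min, against 105, 168 and 182 CPM at 0 min. WT had 197, 194 and 174 CPM at 90 min and 195, 198 and 192 CPM at 0 min. The log2 fold change was -1.42 (± 0.23 SE, with 1.20e-05 as the BH-adjusted edgeR p) at 20 min and -1.14 (± 0.23 SE, with 0.00019 as the BH-adjusted edgeR p) at 90 min. Groups did not overlap, and replicate 1 was the lowest of the 3 in each of the tagged groups given here.

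FEX1 (YOR390W, chromosome XV, 1076784 to 1077911, plus strand) had 2.39, 3.66 and 3.35 CPM at 20 min, 2.40, 1.63 and 2.70 CPM at 40 min and 4.18, 4.42 and 5.76 CPM at 90 min, against 9.39, 9.05 and 10.7 CPM at 0 min. Its log2 fold change was -1.62 (SE 0.30) at 20 min, -2.11 (SE 0.31) at 40 min and -1.03 (SE 0.30) at 90 min, with edgeR adjusted p of 8.99e-05, 1.91e-06 and 0.00694. FEX2 (YPL279C, chromosome XVI, 13228 to 14355, minus strand) had 2.73, 6.68 and 7.49 CPM at 20 min and 4.67, 7.15 and 4.90 CPM at 90 min, against 12.996, 11.2 and 17.2 CPM at 0 min. It changed by -1.29 (± 0.30 SE, with 0.00185 as the BH-adjusted edgeR p) at 20 min and by -1.29 (± 0.31 SE, with 0.00144 as the BH-adjusted edgeR p) at 90 min. The coding sequences of the pair are 99.3% identical over 1128 bases, so how reads were split between FEX1 and FEX2 is uncertain. In WT, FEX1 averaged 12.7 ± 0.542 CPM at 90 min and 11.1 ± 3.03 CPM at 0 min, and FEX2 18.8 ± 1.91 CPM and 16.9 ± 0.540 CPM (SD, n = 3 each). The call at 20 min was lost for FEX2 without Abf1 0 min replicate 3 or without Abf1 20 min replicate 1 (highest edgeR adjusted p = 0.0278), and that of FEX1 at 90 min was kept in 2 of 6 fits that each left out 1 library.

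**Figure D3:**
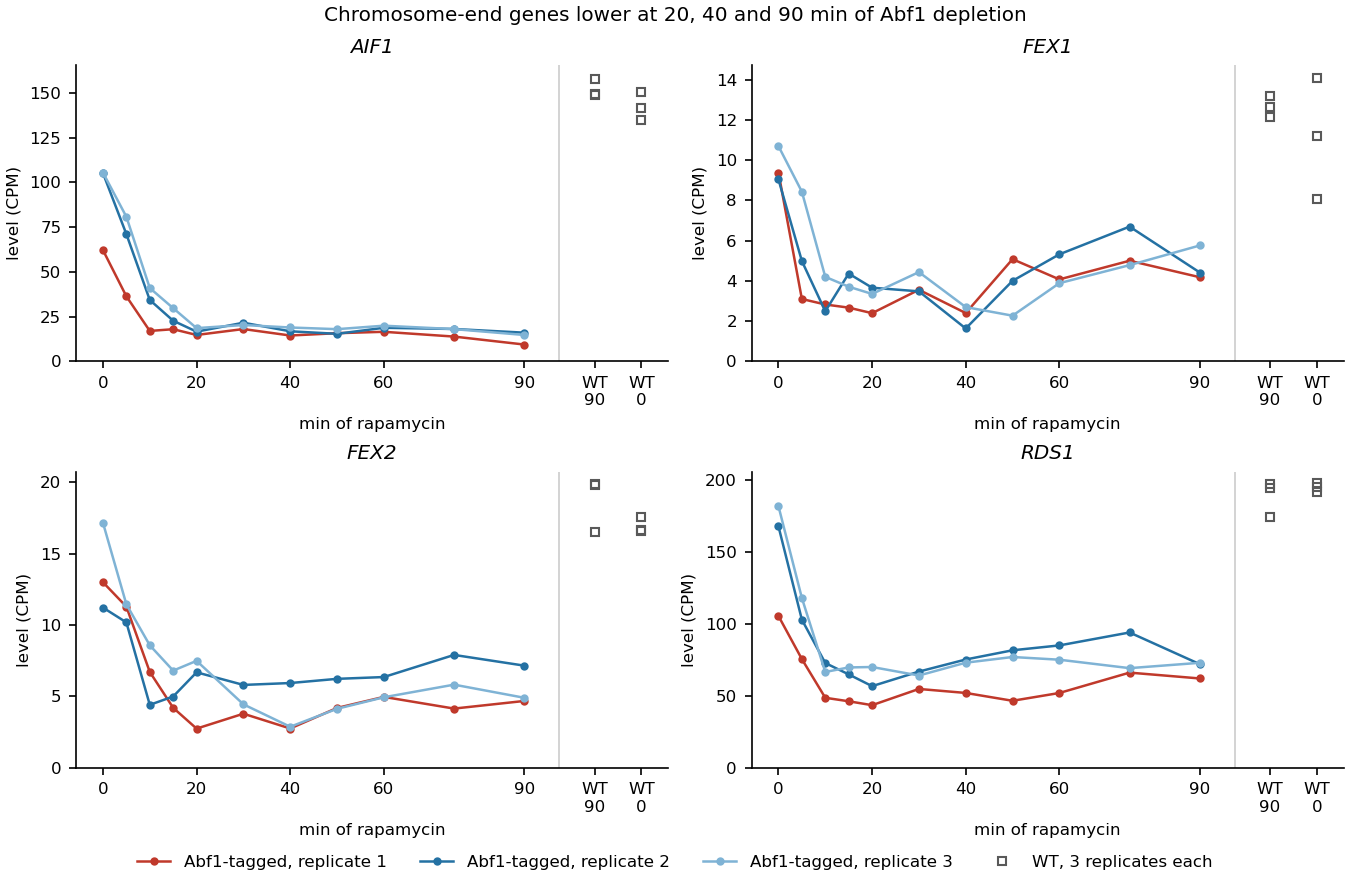
Level in CPM (y axis) against minutes of rapamycin (x axis) for the 4 chromosome-end genes called lower at 20, 40 and 90 min, with a line for each replicate number of the Abf1-tagged strain and open squares for the 3 libraries each of WT at 90 min and at 0 min. AIF1 is at 9.34 to 16.0 CPM at 90 min, against 62.1 to 105 CPM at 0 min.

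The promoters of these genes hold the letters of the Abf1 consensus, which is the reason for showing them. The 300 bases before the annotated start follow, 5′ to 3′ on the gene's strand, with the match to the 13-letter consensus in capitals (assembly R64, from RefSeq). In FEX1 and FEX2 the match begins 174 bases before the start and is spelled alike, so only FEX1 is shown. In RDS1 it begins 113 bases and in AIF1, on the opposite strand, 275 bases before the start.
AIF1, chrXIV:778739-779038, minus strand: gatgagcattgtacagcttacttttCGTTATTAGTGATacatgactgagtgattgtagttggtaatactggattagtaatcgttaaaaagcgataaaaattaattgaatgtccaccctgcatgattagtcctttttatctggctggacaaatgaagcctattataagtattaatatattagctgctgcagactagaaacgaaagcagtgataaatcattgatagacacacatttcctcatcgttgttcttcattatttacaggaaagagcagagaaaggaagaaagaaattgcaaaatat
FEX1, chrXV:1076484-1076783, plus strand: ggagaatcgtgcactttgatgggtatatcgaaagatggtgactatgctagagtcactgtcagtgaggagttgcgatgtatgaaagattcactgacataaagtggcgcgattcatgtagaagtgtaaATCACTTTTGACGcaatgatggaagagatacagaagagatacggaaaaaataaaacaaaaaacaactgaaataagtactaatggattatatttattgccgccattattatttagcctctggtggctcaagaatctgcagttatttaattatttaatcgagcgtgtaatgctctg
RDS1, chrIII:310658-310957, plus strand: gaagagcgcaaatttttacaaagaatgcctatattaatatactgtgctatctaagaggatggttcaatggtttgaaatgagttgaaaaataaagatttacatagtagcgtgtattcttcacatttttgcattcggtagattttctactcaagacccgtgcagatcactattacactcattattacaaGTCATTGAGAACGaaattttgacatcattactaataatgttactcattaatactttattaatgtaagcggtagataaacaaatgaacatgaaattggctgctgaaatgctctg

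Within a window of 250 bases before to 50 bases after the start, searched on both strands, the Abf1 consensus occurred in 6 of the 103 end genes (5.83%), against 12.5% of 5613 tested features with such a window and 73.5% of the 487 called lower at 20 min. AIF1 is not among the 6, since its match lies outside this window. A looser core, TCNNNNNNNACG, which overlaps the consensus, occurred in 27.2% of the end genes and 30.5% of all. The Reb1 letters TTACCC occurred in 11.7% and 16.2%, and the Tbf1 letters TTAGGG in 3.88% and 6.88%. At 20 min, 358 of the 704 tested features with the consensus were called lower, and the end genes were not tested against this share. Of the 6 end genes with the consensus, FEX1, FEX2 and RDS1 were called lower, while YCR102C, YLR460C and AYT1 were not. The matches of these last 3, shown with 10 bases on either side for contrast, lie inside the reading frame in YCR102C and YLR460C and 49 bases before the start in AYT1.
YCR102C, chrIII:305433-305465, minus strand: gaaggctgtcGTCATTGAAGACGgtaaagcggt
YLR460C, chrXII:1060829-1060861, minus strand: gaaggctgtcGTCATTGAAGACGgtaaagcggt
AYT1, chrXII:16099-16131, minus strand: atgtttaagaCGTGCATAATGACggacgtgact
YLR460C had 1493, 1552 and 1698 CPM at 20 min, against 1539.9, 1766 and 1680.1 CPM at 0 min, a log2 fold change of -0.07 (± 0.10 SE, with 0.775 as the BH-adjusted edgeR p). AYT1, an acetyltransferase of trichothecenes, changed by -0.25 (± 0.57 SE, with 0.873 as the BH-adjusted edgeR p) and was itself lower in replicate 1, by -1.39 ± 0.30 (SD over 11 time points).

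The chromosome ends themselves carry the consensus. It occurred in 31 of the 32 annotated telomere regions, including all 15 that have no Y′ element (431 to 1098 bases long), whereas 10.9% of 14396 genome windows of 838 bases, the median length of the 15, held it. The match and its flanks were alike between arms, as these examples show, each written on the strand of the match and placed 549, 635, 656 and 799 bases from its chromosome end.
Chromosome II right, chrII:812626-812658, minus strand: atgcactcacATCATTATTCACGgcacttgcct
Chromosome IV left, chrIV:625-657, plus strand: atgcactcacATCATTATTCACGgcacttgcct
Chromosome XI right, chrXI:666151-666183, minus strand: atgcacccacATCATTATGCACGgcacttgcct
Chromosome XIV right, chrXIV:783525-783557, minus strand: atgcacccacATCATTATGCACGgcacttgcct
At 90 min, 42 of the 103 had a negative and 61 a positive log2 fold change.

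YER188C-A (chromosome V, 569608 to 569907, minus strand) had 4.27, 6.04 and 3.55 CPM at 20 min, 5.82, 8.89 and 8.42 CPM at 40 min and 6.15, 12.0 and 7.20 CPM at 90 min, against 1.26, 1.81 and 1.82 CPM at 0 min. In WT it had 2.04, 2.28 and 1.47 CPM at 90 min and 2.11, 1.48 and 3.53 CPM at 0 min. All tagged libraries at these times were above all those at 0 min. The log2 fold change was 1.50 (± 0.40 SE, with 0.00645 as the BH-adjusted edgeR p) at 20 min, 2.23 (± 0.38 SE, with 2.58e-05 as the BH-adjusted edgeR p) at 40 min and 2.37 (± 0.39 SE, with 1.09e-05 as the BH-adjusted edgeR p) at 90 min. Its counts were low, with 7 to 10 counts per library at 0 min and 25 to 57 at 90 min, and the call at 20 min was kept in 1 of 6 fits that each left out a library (highest edgeR adjusted p = 0.0604). A fit blocked on the replicate number called 2 genes higher at 20 min, namely YER188C-A and the maltose permease gene MAL31.

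At 40 min the same number of genes was called in each direction, 4 lower and 4 higher, beside 10.3% and 1.49% of all features. The genes called lower were AIF1, FEX1, FEX2 and RDS1. Those called higher were YER188C-A, MAL31, MSC1 and YKR104W. MAL31 (chromosome II, 802631 to 804475, minus strand) had 59.4, 97.7 and 70.6 CPM at 40 min, against 36.5, 37.8 and 48.7 CPM at 0 min, and 55.9, 56.0 and 61.0 CPM in WT at 90 min and 58.4, 59.5 and 55.8 CPM in WT at 0 min. Its log2 fold change at 40 min was 0.89 (± 0.22 SE, with 0.0028 as the BH-adjusted edgeR p), and 0.70 (± 0.22 SE, with 0.0154 as the BH-adjusted edgeR p) at 90 min, which did not pass. MSC1 (chromosome XIII, 15135 to 16676, minus strand), named for an effect on sister chromatid recombination in meiosis, had 269, 370 and 275 CPM, against 181, 202 and 167 CPM at 0 min, a log2 fold change of 0.73 (± 0.19 SE, with 0.00434 as the BH-adjusted edgeR p). Each of these 2 calls was kept in 3 of the 6 fits that left out a library, and that of YKR104W, given below with its values, in 1 of 6. Fewer calls were made higher when only the 2 groups compared entered the fit, where YER188C-A alone was called.

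At 90 min, 7 of the 103 genes were called lower and 12 higher, beside 11.3% and 6.26% of all features, and the median log2 fold change was 0.24, against 0.04 over all features. The genes called lower were AIF1, FEX1, FEX2, RDS1 and 3 genes of the telomere regions. The 6 highest fold changes were those of YER188C-A, YMR320W, YKR104W, SRO77, NFT1 and RPN12. The other 6 called higher, named here after their values were seen, had log2 fold changes from 0.60 to 0.79. Among them were HYR1, a peroxidase that senses hydroperoxide, ERO1, and DLD3, which turns 2-hydroxyglutarate into 2-oxoglutarate. The rest were MAL13, of the maltose activator type, MSC1 and ARR3, which exports arsenite. Calls depended on the libraries. Without Abf1 90 min replicate 2, 4 genes were called lower and 6 higher. Without all libraries of replicate 3, an alternative added after seeing the data, AIF1 alone (1 gene) was called lower and 8 were called higher, of 498 and 170 over all features. In the fit blocked on the replicate number, 9 were lower and 15 higher (of 712 and 461 over all features), and all 19 genes of the fit without the block were among them.

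SRO77 (YBL106C, chromosome II, 10847 to 13879, minus strand), which takes part in secretory vesicle docking, had 199, 218 and 165 CPM at 90 min, against 62.1, 76.7 and 85.8 CPM at 0 min, and 78.4, 76.9 and 75.6 CPM in WT at 90 min and 83.8, 73.5 and 76.2 CPM in WT at 0 min. Its log2 fold change was 1.38 (± 0.19 SE, with 6.51e-07 as the BH-adjusted edgeR p), while it was 0.07 (± 0.19 SE, with 0.902 as the BH-adjusted edgeR p) at 20 min, and it was first called at 60 min. RPN12 (YFR052W, chromosome VI, 252505 to 253329, plus strand), a subunit of the proteasome lid, had 229.9, 264 and 279 CPM, against 133, 155 and 151 CPM at 0 min, and 168, 150.4 and 142 CPM in WT at 90 min and 141, 148 and 135 CPM in WT at 0 min. It changed by 0.82 (± 0.10 SE, with 9.78e-08 as the BH-adjusted edgeR p) and was first called at 75 min. These genes rose late, and the groups at 90 and 0 min did not overlap.

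NFT1 (YKR103W, chromosome XI, 653080 to 656736, plus strand) and YKR104W (chromosome XI, 656836 to 657756, plus strand) lie in tandem and encode parts of a presumed ABC transporter that is whole in some other strains. NFT1 had 104, 107 and 97.0 CPM at 90 min, against 39.9, 38.7 and 49.7 CPM at 0 min, with 46.9, 44.9 and 47.3 CPM in WT at 90 min and 40.4, 47.4 and 49.1 CPM in WT at 0 min. YKR104W had 23.9, 21.4 and 19.9 CPM, against 7.94, 6.88 and 8.08 CPM at 0 min, with 7.63, 10.0 and 10.7 CPM in WT at 90 min and 6.98, 7.05 and 7.85 CPM in WT at 0 min. The log2 fold changes were 1.27 for NFT1 (± 0.17 SE, with 6.04e-07 as the BH-adjusted edgeR p) and 1.51 for YKR104W (± 0.22 SE, with 1.98e-06 as the BH-adjusted edgeR p). At 40 min YKR104W was called at 0.78 (± 0.22 SE, with 0.00948 as the BH-adjusted edgeR p), while NFT1 at 0.57 (± 0.17 SE, with 0.0151 as the BH-adjusted edgeR p) was not, and the difference between the genes was not tested.

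YMR320W (chromosome XIII, 916746 to 917051, plus strand), of unknown function, had 4.18, 11.4 and 5.18 CPM at 90 min, against 1.08, 1.81 and 2.63 CPM at 0 min. WT had 2.59, 2.63 and 2.02 CPM at 90 min and 2.11, 1.80 and 2.16 CPM at 0 min. The log2 fold change of 1.93 (± 0.42 SE, with 0.000469 as the BH-adjusted edgeR p) became 1.31 without Abf1 90 min replicate 2 (edgeR adjusted p = 0.0262) and was then no longer called. The gene had 17 to 54 counts per library at 90 min and 6 to 13 at 0 min.

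**Figure D4:**
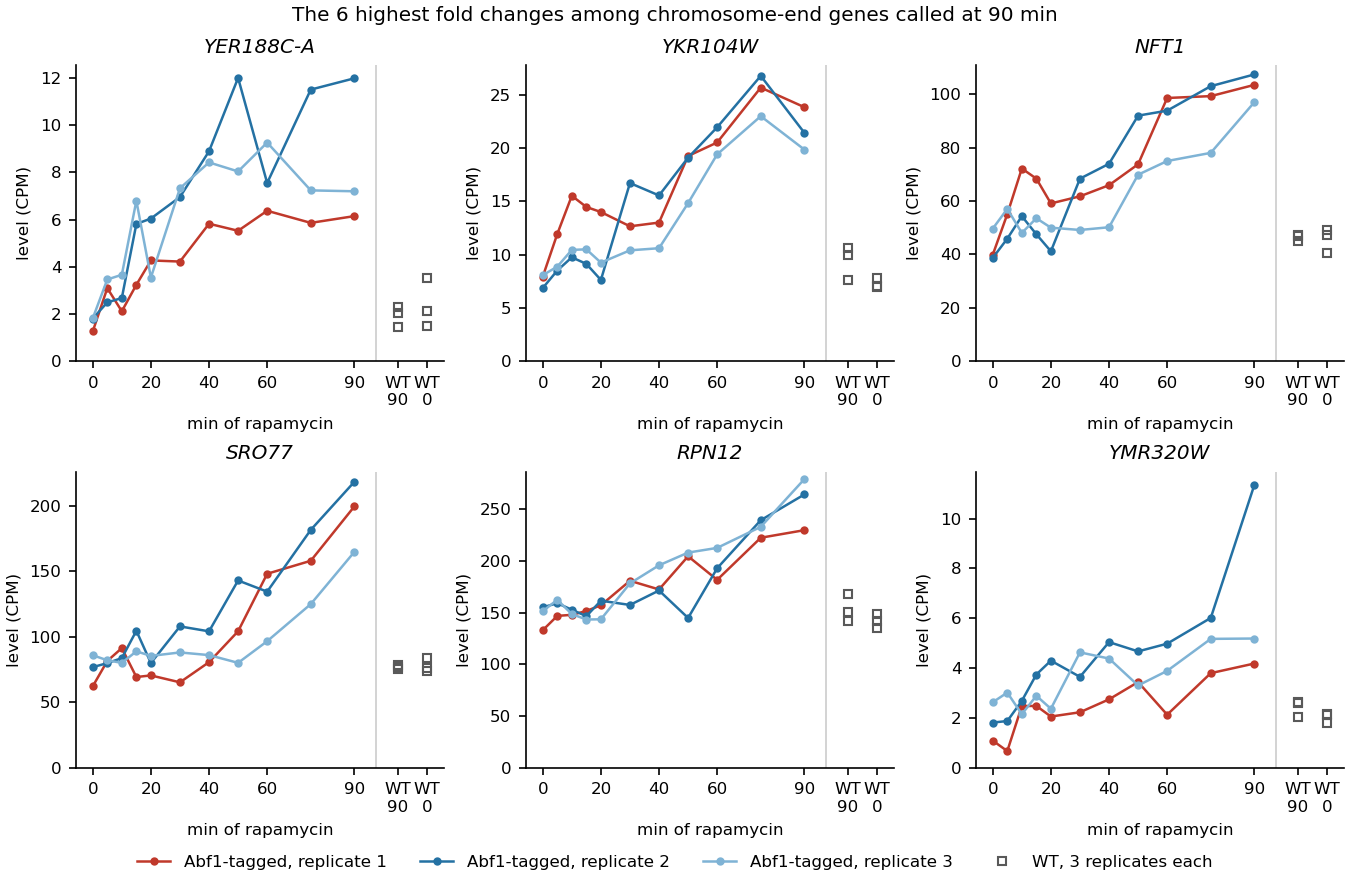
Level in CPM (y axis) against minutes of rapamycin (x axis) for the 6 highest fold changes among the 12 chromosome-end genes called higher at 90 min, with a line for each replicate number of the Abf1-tagged strain and open squares for the 3 libraries each of WT at 90 min and at 0 min. SRO77 is at 165 to 218 CPM at 90 min, against 62.1 to 85.8 CPM at 0 min, with WT at 73.5 to 83.8 CPM.

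By family, calls were few in short lists. Over all features, 8.65% were called lower at 20 min, 10.3% at 40 min and 11.3% at 90 min. Called higher at these times were 0.629%, 1.49% and 6.26%. The difference between these shares and those of the lists was not tested. None of the 10 COS genes was called at 20, 40 or 90 min, with 0.29 as the median log2 change at 90 min and 0.33 in WT. Of the 8 sugar genes, 1 was called higher at 40 min (MAL31) and 1 at 90 min (MAL13), with medians of 0.63 and 0.50. Their median in WT at 90 min was -0.04. None of the 6 metal, vitamin and cofactor genes, of the 3 seripauperin genes and of the 3 flocculin and aryl alcohol dehydrogenase genes was called at these times. None of the 27 genes at least 2-fold lower in replicate 1 was called in any of the 6 comparisons in the fit without a block. In the fit blocked on the replicate number, YEL073C was called lower at 90 min, also against the change of WT, and AYT1 was called lower at 0 min against WT. Without the libraries of replicate 1, YDR541C and YEL073C were called lower and YPS6 higher at 90 min. Their spread between replicates was wide, as in SEO1, whose log2 fold change of 0.33 at 90 min had an SE of 1.22 (edgeR adjusted p = 0.859). Among the 18 silencing and telomere factors, 3 were called lower at 20 min and none higher, beside 8.65% and 0.629% of all features. They were SIR4 at -0.73 (± 0.10 SE, with 1.31e-06 as the BH-adjusted edgeR p), HDA2 at -0.80 (± 0.13 SE, with 2.29e-05 as the BH-adjusted edgeR p) and SAS5 at -1.14 (± 0.22 SE, with 0.000172 as the BH-adjusted edgeR p). At 90 min HDA2 and SAS5 were called lower. SIR4 was then at -0.45 (± 0.10 SE, with 0.000906 as the BH-adjusted edgeR p), short of the fold threshold.

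A place in an annotated telomere region was not the same as nearness to the end. YLR462W, in such a region, lay 11.6 kb from its end, while COS2, outside these regions, lay 1.705 kb from its end. The genes of the telomere regions were taken as a set. Of the 19 that lie inside or across such a region, 3 were called lower at 90 min and 1, YER188C-A, higher, beside 11.3% and 6.26% of all features. Their median log2 fold change was -0.70 at 90 min, and 17 of 19 were negative. In WT after 90 min of rapamycin their median was -0.41, and 17 of 19 were also negative, with none called. Their summed level was 153, 136 and 137 CPM at Abf1 90 min, against 176, 225 and 209 CPM at Abf1 0 min. It was 141, 136 and 138 CPM at WT 90 min, against 196, 171 and 201 CPM at WT 0 min. The sums at 90 min lay below those at 0 min in both strains. Each library at 90 min was below each at 0 min for 6 of the 19 in the tagged strain (19.7% of all features) and for 10 of the 19 in WT (19.6% of all features). These genes share sequence, with over 50% of windows repeated elsewhere in 18 of 19, so they are not separate measurements.

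YEL077C (chromosome V, 264 to 4097, minus strand) and YBL113C (chromosome II, 280 to 2658, minus strand), both of the helicase type encoded by Y′ elements, are the first genes of their arms. YEL077C had 16.7, 15.8 and 16.1 CPM at Abf1 90 min, against 24.7, 32.6 and 29.1 CPM at Abf1 0 min, and 23.2, 23.5 and 22.1 CPM at WT 90 min, against 38.1, 31.6 and 34.6 CPM at WT 0 min. YBL113C had 23.1, 16.2 and 20.2 CPM at Abf1 90 min, against 37.2, 30.9 and 33.7 CPM at Abf1 0 min, and 23.4, 21.4 and 25.2 CPM at WT 90 min, against 38.7, 29.0 and 32.6 CPM at WT 0 min. In both strains and both genes the 90 min libraries were lower without overlap. The log2 fold changes were -0.83 (± 0.19 SE, with 0.000966 as the BH-adjusted edgeR p) for YEL077C and -0.78 (± 0.18 SE, with 0.00109 as the BH-adjusted edgeR p) for YBL113C in the tagged strain, and -0.60 (± 0.18 SE, with 0.442 as the BH-adjusted edgeR p) and -0.52 (± 0.18 SE, with 0.442 as the BH-adjusted edgeR p) in WT. The difference between the strains was -0.23 (± 0.26 SE, with 0.629 as the BH-adjusted edgeR p) and -0.26 (± 0.25 SE, with 0.542 as the BH-adjusted edgeR p), which did not pass. YRF1-2 (YER190W, chromosome V, 571480 to 576525, plus strand), a Y′ helicase gene that overlaps YER189W and YER190C-B, had 1.72, 1.47 and 1.15 CPM at Abf1 90 min, against 4.51, 3.08 and 5.05 CPM at Abf1 0 min. It changed by -1.51 (± 0.40 SE, with 0.00341 as the BH-adjusted edgeR p), and its call was kept in 3 of 6 fits that each left out a library.

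**Figure D5:**
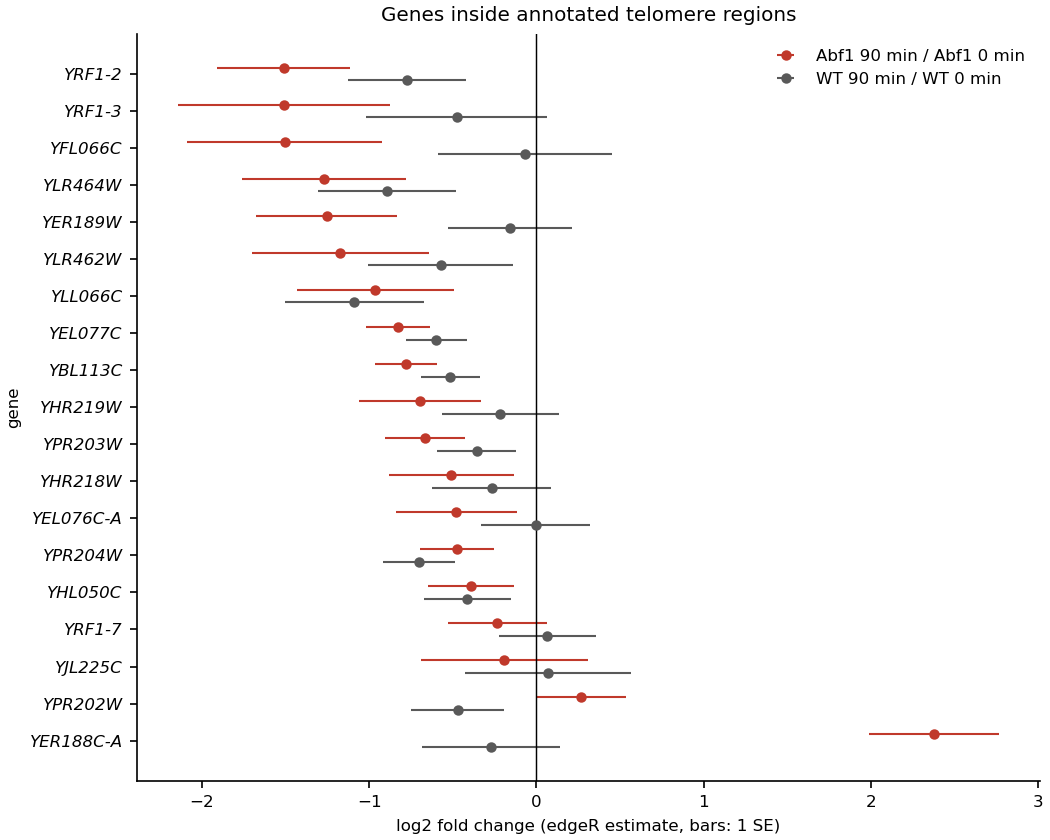
Log2 fold changes (x axis, edgeR estimates with bars of 1 SE) of the 19 chromosome-end genes inside or across an annotated telomere region (y axis), for Abf1 90 min over Abf1 0 min and for WT 90 min over WT 0 min. The median is -0.70 in the tagged strain and -0.41 in WT, and YER188C-A stands apart at 2.37 in the tagged strain.

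Rapamycin in WT led to no call among the 103 genes with edgeR, and to none among all features (0%). At an unadjusted p under 0.05, 7 of the 103 were lower and 4 higher, beside 4.89% and 3.91% of all features. DESeq2 called none. The median log2 fold change was 0.08, against -0.004 over all features. When only the WT groups entered the fit, 1 gene, YPR204W of a telomere region, was called lower, and that fit called 7 lower and 26 higher over all features. When the change of the tagged strain was set against that of WT at 90 min, 1 of the 103 was called lower (AIF1) and 7 higher, beside 8.83% and 2.81% of all features. The 3 highest were YER188C-A at 2.65 (± 0.57 SE, with 0.000759 as the BH-adjusted edgeR p), SRO77 at 1.39 (± 0.27 SE, with 0.000176 as the BH-adjusted edgeR p) and NFT1 at 1.24 (± 0.25 SE, with 0.000248 as the BH-adjusted edgeR p), and each was called in all 12 fits that left out 1 library. Without all libraries of 1 replicate number, however, SRO77 was lost without replicate 1 (adjusted p = 0.016 with edgeR), NFT1 without replicate 2 (adjusted p = 0.0213 with edgeR) and YER188C-A without replicate 3 (adjusted p = 0.0693 with edgeR). The lower count was 6 in the fit blocked on the replicate number, where COS9, FET4, FEX2, RDS1 and YEL073C joined AIF1 (597 of all features were then lower). It was 3 with DESeq2 and 5 with only the compared groups in the fit.

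Between the strains at 0 min, the flocculin gene FLO1 and the decarboxylase gene FDC1 were lower in the tagged strain, and no end gene was higher, beside 0.28% and 0.245% of all features. At an unadjusted p under 0.05, 6 were higher, beside 6.29% of all features, and DESeq2 called 1 of these, ARR3. FDC1 (YDR539W, chromosome IV, 1512094 to 1513605, plus strand) had 6.14, 10.3 and 9.89 CPM in Abf1 0 min, against 35.7, 36.7 and 31.8 CPM in WT 0 min. The log2 difference was -1.98 (± 0.28 SE, with 7.42e-05 as the BH-adjusted edgeR p). Its neighbour PAD1, which makes the flavin cofactor that FDC1 needs and is named here after its values were seen, had 20.8, 24.8 and 27.9 CPM, against 21.4, 27.1 and 24.7 CPM in WT 0 min (log2 difference 0.00, with 0.18 as its SE and 0.999 as the BH-adjusted edgeR p). The other gene, FLO1 (YAR050W, on chromosome I, 203403 to 208016, plus strand) had 1.99, 3.08 and 3.84 CPM in Abf1 0 min, against 20.3, 18.9 and 18.7 CPM in WT 0 min, and 51.7% of its windows are repeated elsewhere. Its log2 difference was -2.70 (± 0.40 SE, with 0.000146 as the BH-adjusted edgeR p). Both calls were kept in all 6 fits that left out 1 library, but neither was made without all libraries of replicate 3, and FLO1 was also not called without those of replicate 2. Without those of replicate 1, 2 genes, GEX2 and YPS5, were called higher in the tagged strain. FDC1 stayed low through the time course, with 12.8, 17.9 and 9.50 CPM at Abf1 90 min, against 37.6, 38.1 and 39.5 CPM at WT 90 min.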

How the data were processed

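Counts per gene were deposited by the authors for 39 4tU-seq libraries. Per the submitters' processing notes and the study's methods, trimmed read pairs were aligned with HISAT2 2.0.5 to sacCer3 with the strand setting, read pairs with a repeated molecular identifier were removed, and reads were counted with featureCounts of Subread 1.6.5. Whether counting used strand is not given in the sources used here, so reads of overlapping genes may not be told apart. Removal of repeats and of reads that fit several places can lower the counts of repeated genes. A second deposited table holds the authors' own comparisons (made with DESeq2 1.10.1) and was not used.

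Groups were taken from the labels. Counts were tested with edgeR 4.0.16 (TMM scaling, filterByExpr with a minimum count of 10, robust quasi-likelihood fit, 1 coefficient per group, all 39 libraries) and adjusted by Benjamini-Hochberg over 5722 features. A gene was called at an adjusted p under 0.01 and a fold over 1.5. The comparisons were Abf1 20, 40 and 90 min with Abf1 0 min, WT 90 min with WT 0 min, Abf1 0 min with WT 0 min, and the difference between the strains' effects at 90 min. Total counts per library were 3500982 to 11266408, and their number limits the precision of low genes. Replicate numbers were compared on log2(CPM + 0.5), which understates differences of low genes. Distances, repeated 55-base windows, motifs and sequences came from the RefSeq R64 genome.

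The members and lists were chosen with earlier results of these data known. Named genes were the up to 6 lowest and 6 highest called members at 20, 40 and 90 min, up to 3 and 3 in the other comparisons, the 4 members with the highest CPM per kb, and the called members nearest an end. Others were named after their values were seen. Same-numbered tagged libraries deviated together (Pearson r of 0.25 to 0.73 across genes between the groups of the 3 time comparisons, which are not independent replicates), so the numbers were taken to pair them, and a replicate block was an alternative. Other alternatives were size factors by RLE, no filter on low counts, the compared groups alone, DESeq2 1.42.0, left-out libraries and other limits for membership. The scripts were tested on simulated data. R 4.3.3, Python 3.11.15, pandas 2.3.3 and Biopython 1.88 were used.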

Additional observations from a re-analysis of the deposited data

Results flagged for a closer look

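For 8 chromosome-end genes the response to 90 min of rapamycin differed between the tagged strain and WT by the test of the difference itself (edgeR's quasi-likelihood test, adjusted over all features). Of these, 1 was lower and 7 were higher, beside 8.83% and 2.81% of all features. AIF1 had a log2 difference of -2.86 (SE 0.36, adjusted p = 2.19e-07). YER188C-A had 2.65 (SE 0.57, adjusted p = 0.000759), SRO77 had 1.39 (SE 0.27, adjusted p = 0.000176), NFT1 had 1.24 (SE 0.25, adjusted p = 0.000248) and YKR104W had 1.14 (SE 0.32, adjusted p = 0.00861). RPN12 had 0.70 (SE 0.14, adjusted p = 0.000404), DLD3 had 0.65 (SE 0.16, adjusted p = 0.00245) and ERO1 had 0.65 (SE 0.17, adjusted p = 0.00552). Without all libraries of replicate 1, 4 of the 7 higher genes were called (ERO1, SRO77 and YKR104W were lost). Without those of replicate 2, 3 were called (DLD3, ERO1, NFT1 and YKR104W were lost), and without those of replicate 3, 2 were called (SRO77 and NFT1). Over all features, the fits without replicate 1, 2 or 3 called 125, 80 and 39 higher. DLD3 and ERO1 were lost with only the compared groups in the fit, and YKR104W without the filter on low counts. AIF1 was called in each of these fits.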

How the results depend on the processing

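No direction reversed among the calls of single genes. Of their values under the alternatives, 398 kept their call and 74 lost it. Of the main results under the alternatives, 154 stayed the same and 61 moved. The causes were not tested, except that fewer members or libraries entered some fits. With the replicate block, which pairs same-numbered libraries, 5 genes were called lower (YPR204W was gained) and 2 higher at 20 min. At 40 min it gave 5 higher (YMR320W was gained). Between the strains at 0 min, whose replicates share only a number, it gave 4 lower (FLO1, FDC1, AIF1 and AYT1) and 1 higher (ARR3). For the difference between the strains' effects it gave 6 lower. The WT groups also share only a number, and the block changed no WT call. With only the compared groups in the fit, 3 were lower and 0 higher at 20 min, and 1 was higher at 40 min. At 90 min that fit gave 4 lower and 6 higher. In WT 1 was then lower, and for the difference between effects 5 were lower and 5 higher. DESeq2 called 5 lower at 20 min (YPR204W was gained) and 8 lower at 90 min (FET4 was gained). It also called 1 higher between strains and 3 lower for the difference between effects. No filter on low counts gave 2 lower and 6 higher for the difference between effects. RLE size factors and no filter on low counts each gave 3 higher at 40 min and 11 higher at 90 min. Leaving out 1 library or, as a choice made after seeing the data, all libraries of 1 replicate number gave 0 to 1 higher at 20 min, 2 to 5 lower and 1 to 6 higher at 40 min, 1 to 8 lower and 6 to 13 higher at 90 min, 0 to 2 lower and 0 to 2 higher between strains, and 1 to 5 lower and 2 to 6 higher for the difference between effects. Without replicate 3, 1 was lower at 90 min, and without replicate 1, 5 were lower for the difference between effects. At 20 min, 3 were lower without replicate 1 and 3 without replicate 3 (FEX2 was lost in both). Among the 64 members with a mean count of at least 50, 2 were lower and 0 higher at 20 min, 2 lower at 40 min, 4 lower at 90 min and 1 lower between strains, and 14 were at least 2-fold lower in replicate 1. Among the 42 members of the 3 highest numbers per arm, 1 was lower at 20 min, 1 lower and 2 higher at 40 min, 4 lower and 2 higher at 90 min, 0 lower between strains, and 0 lower and 2 higher for the difference between effects. Of these 42, 13 were lowest in replicate 1 at all times and 11 at least 2-fold lower there. At 0 min YER188C-A had 7 to 10 and YMR320W 6 to 13 counts per library in the tagged strain.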
